A study of Mus musculus with 8 samples.

Results

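The genes described here are 45 imprinted genes of the mouse, taken as a fixed list of symbols and followed through the 8 RNA-seq libraries of the study. They were matched by symbol to the 55573 Ensembl gene IDs of the count tables, and each of the 45 had 1 ID. By the parental allele from which they are known to be transcribed, 24 are paternally expressed, 15 are maternally expressed, 2 (Gnas and Grb10) use either allele depending on tissue or promoter, and 4 (Blcap, Inpp5f, Commd1 and Trappc9) are hosts that contain an imprinted gene or transcript. They lie in 19 clusters. A filter on low counts, which kept 18205 of all IDs, was passed by 36 of the 45.

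The libraries were made from tdTomato-positive cells sorted from the cortex of mice on the C57BL/6 background. The animals of every group carried a Cre recombinase under the parvalbumin (PV) locus and the tdTomato reporter. The WT groups were PV-Cre/tdTomato/Dnmt1 wild-type mice of 6 or 18 months, and the KO groups were PV-Cre/tdTomato/Dnmt1 loxP2 mice of 6 or 18 months. In the loxP2 line exons 4 and 5 of Dnmt1, the gene of the maintenance DNA methyltransferase, are flanked by recombination sites and are lost in cells with Cre. Each group had 2 libraries, called technical replicates by the submitters, of cells pooled from 6 WT and 6 KO mice. The sources used here do not say whether those numbers hold per age. The p-values below measure the spread between libraries of a group, which may be technical, rather than between mice. Counts of a gene sum the reads of both parental alleles, so a change of level is not a change of imprinting.

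Imprinted genes carry a DNA methylation mark set in the egg or the sperm, and in each cell the copy from 1 parent is transcribed. Their clusters are controlled by imprinting control regions, which often double as the promoter of a long noncoding RNA, and after fertilisation the marks are copied at each division by Dnmt1 with its partner Uhrf1, guided by the zinc finger proteins Zfp57 and Zfp445. In the brain many of these genes act in growth, feeding, hormone signalling and neuronal differentiation, and several are imprinted in neurons alone.

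Libraries held 6008175 to 13551218 counts. Libraries of the same group correlated at r = 0.972 to 0.99 across genes, and the WT libraries at 6 months correlated with the other groups at 0.892 to 0.946, against 0.954 to 0.975 between the other groups. Levels are given in CPM, the counts per 1000000 reads on genes past the filter, with totals adjusted by the TMM scaling of edgeR. Dnmt1 itself stood at 97.9 and 104 CPM in the WT libraries and 77.2 and 75.2 CPM in the KO libraries at 6 months. The older WT libraries had 80.8 and 81.1 CPM and the older KO libraries 74.3 and 76.6. It fell in KO at 6 months (log2 change -0.40 ± 0.07 SE, adjusted p = 0.0001) and its call at 18 months was not made (log2 change -0.10 ± 0.07 SE, adjusted p = 0.281). Gene-level counts include the exons outside the deletion. Pvalb, the defining marker of the labelled cell type, had 6 reads in all 8 libraries together. Over 8 PV interneuron markers the summed level was 91.6 to 102 CPM in WT at 6 months, 40.1 to 43.1 in KO at 6 months, 17.5 to 18.9 in WT at 18 months and 12.7 to 17.6 in KO at 18 months. The 12 oligodendrocyte markers summed to 14186 to 14234 CPM in WT at 6 months, 30777 to 31708 in KO at 6 months, 41543 to 41599.7 in WT at 18 months and 28193 to 28712 in KO at 18 months, and 12 astrocyte markers to 16566 to 16609 CPM in WT at 6 months, 9938 to 9982 in KO at 6 months, 5543 to 5545 in WT at 18 months and 11766 to 11772 in KO at 18 months. In such bulk libraries fewer cells of a type and less RNA per cell cannot be told apart.

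The stretches before the start sites of some of the genes are printed here, 5′ to 3′ on the strand of the gene, as the 250 bases upstream of a RefSeq start in GRCm38.p6. Capitals mark TGCCGC or its reverse complement GCGGCA, the hexamer that Zfp57 binds when it is methylated. Meg3 (chr12:109540746-109540995, plus strand) was lower in KO at both ages. Plagl1 (chr10:13090582-13090831, plus strand) was higher in KO at both ages. Nap1l5 (chr6:58907127-58907376, minus strand) and Peg3 (chr7:6730420-6730669, minus strand) turned direction between ages. Mest (chr6:30737800-30738049, plus strand) was called in no comparison and serves as the contrast.
Meg3: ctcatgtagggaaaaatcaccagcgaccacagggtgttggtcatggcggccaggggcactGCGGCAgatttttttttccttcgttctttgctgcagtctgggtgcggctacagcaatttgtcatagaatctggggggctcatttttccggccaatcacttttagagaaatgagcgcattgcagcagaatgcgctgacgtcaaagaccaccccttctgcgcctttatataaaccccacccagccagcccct
Plagl1: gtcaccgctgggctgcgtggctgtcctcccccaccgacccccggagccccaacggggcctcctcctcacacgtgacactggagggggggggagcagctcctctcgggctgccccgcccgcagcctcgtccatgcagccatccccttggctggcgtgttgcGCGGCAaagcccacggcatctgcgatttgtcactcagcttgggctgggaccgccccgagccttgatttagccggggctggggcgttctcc
Nap1l5: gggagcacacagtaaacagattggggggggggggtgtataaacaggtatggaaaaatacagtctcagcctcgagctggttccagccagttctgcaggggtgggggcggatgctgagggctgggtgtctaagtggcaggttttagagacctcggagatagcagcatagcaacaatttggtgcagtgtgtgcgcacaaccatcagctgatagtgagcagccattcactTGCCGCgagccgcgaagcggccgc
Peg3: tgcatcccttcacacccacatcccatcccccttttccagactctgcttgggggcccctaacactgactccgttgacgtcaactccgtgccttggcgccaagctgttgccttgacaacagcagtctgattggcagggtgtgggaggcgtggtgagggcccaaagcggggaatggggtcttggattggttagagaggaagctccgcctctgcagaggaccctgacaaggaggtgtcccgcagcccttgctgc
Mest: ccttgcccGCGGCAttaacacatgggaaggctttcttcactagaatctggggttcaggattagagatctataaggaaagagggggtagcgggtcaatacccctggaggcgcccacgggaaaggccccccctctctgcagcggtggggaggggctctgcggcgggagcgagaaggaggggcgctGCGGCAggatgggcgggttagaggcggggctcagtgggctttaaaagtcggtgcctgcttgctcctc
RefSeq lists further starts for some of these genes. A second Meg3 window, at a start inside the gene, and an upstream Mest window hold no hexamer, and for these genes the windows with it are the ones printed. The hexamer occurs 1 time in the printed windows of Meg3, Plagl1 and Nap1l5, 2 times in that of Mest and not in that of Peg3. Other genes called between genotypes at both ages are not printed. Of these, Zim1 holds the hexamer, and Grb10, Blcap, Inpp5f, Ppp1r9a, Snrpn and Zrsr1 do not. CpG dinucleotides number 10, 19, 10, 14 and 8 in the windows of Meg3, Plagl1, Nap1l5, Mest and Peg3. The window of Peg3 shares 163 bases with that of Usp29, which is read in the opposite direction from the same stretch. RefSeq windows were matched for 35 of the 45 genes. Searched on both strands, the hexamer lay in 9 of the 53 windows of these genes (17%), belonging to 8 genes, and in 2850 of all 32851 windows of that length (8.68%). Overlapping Mest windows, from chr6:30737800 and chr6:30737803, were both counted. The hexamer holds a CpG, and the member windows had a median of 10 CpG and 54.8% GC, against 6 and 52.4% for all windows. Whether the shares differ at like CpG content was not tested. Of the windows of paternally expressed genes 6 of 27 held it, and of those of maternally expressed genes 3 of 16. A match is a description of the letters and not a site of binding.

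Per kilobase of exon, Nap1l5 was the most abundant of the 45 (mean over 8 libraries 49.7 RPKM), followed by Inpp5f with 34.3, Nnat with 19, Impact with 18.8, Peg13 with 16.6 and Peg3 with 15.8 RPKM. RPKM here is the CPM per kilobase of annotated exon. Kcnq1ot1 had the highest CPM, a mean of 363, but with 93.092 kb of exon it came to 3.90 RPKM and stood 19th. The filter was not passed by 9 genes. Phlda2 and Rtl1, a placental growth restrictor and a retrotransposon-derived protein, had no read in any library. Calcr, Magel2, Peg12 and Igf2 reached at most 3 reads in a library, and Ascl2 at most 6. H19, the maternal noncoding RNA of the Igf2 locus, had 6 and 1 reads in WT and 0 and 1 in KO at 6 months, then 0 and 1 in WT and none in KO at 18 months. Its ratio of WT to KO at 6 months was 9.79 with a 95% counting interval of 1.26 to 441. That interval pools the libraries of a group and leaves out the spread between them, and 6 of the 7 WT reads came from 1 library. The growth factor gene Igf2 had 2 and 1 reads in KO at 6 months and none in the other 6 libraries, and shares 64.5% of its exon bases with overlapping genes.

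**Figure D1:**
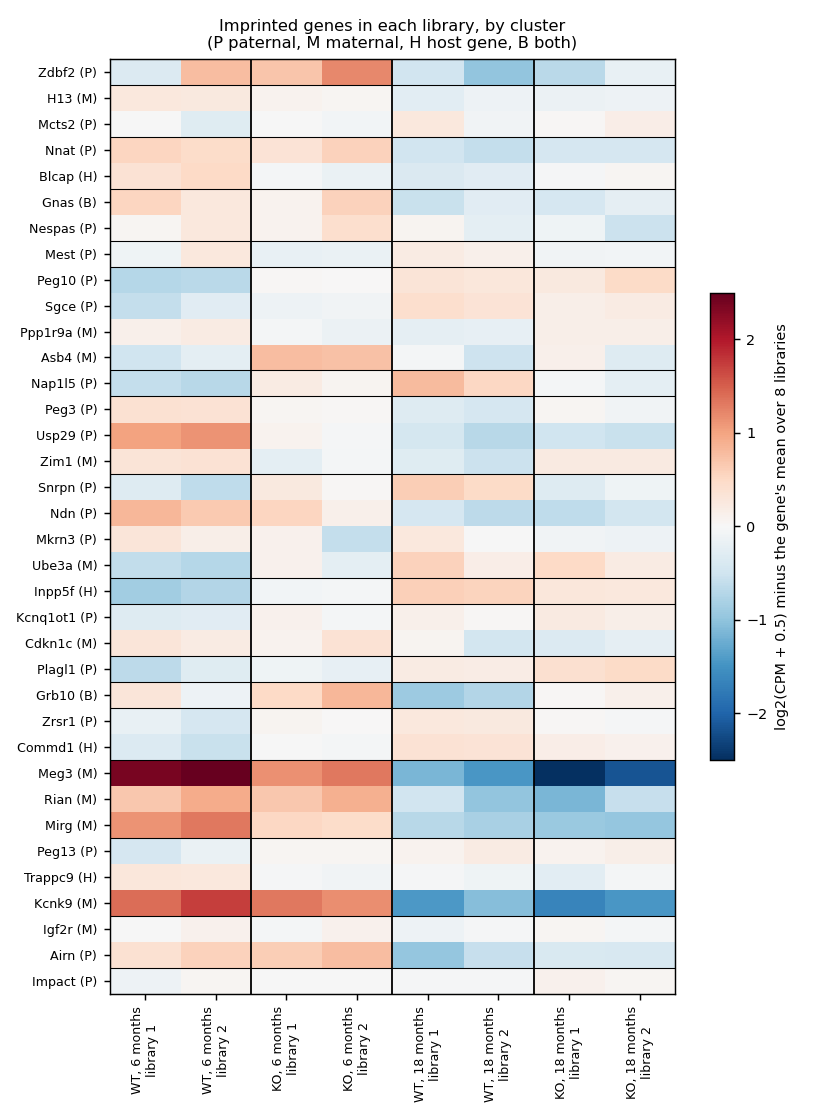
Level of the 36 imprinted genes past the filter (rows, grouped by cluster) in each of the 8 libraries (columns), as log2(CPM + 0.5) minus the gene's mean over the libraries, with the colour scale ending at -2.5 and 2.5. Meg3 and Kcnk9 span the widest range of colours, from dark red at 6 months to dark blue at 18 months, and Impact and Igf2r are nearly white in every library.

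The plot of all libraries shows that the libraries of a group resembled each other for most of the genes, and that the age of the mice separated the red and blue blocks of the Meg3 cluster and Kcnk9. The lowest and highest group mean fell into a few orders. In 9 genes (Mcts2, Sgce, Nap1l5, Snrpn, Ube3a, Inpp5f, Zrsr1, Commd1 and Peg13) WT at 6 months was the lowest group and WT at 18 months the highest, as for the oligodendrocyte marker sum. In another 9 (H13, Nnat, Blcap, Gnas, Ppp1r9a, Peg3, Usp29, Zim1 and Igf2r) these groups stood the other way round, as for the astrocyte, endothelial and fibroblast marker sums. In 7 (Ndn, Cdkn1c, Meg3, Rian, Mirg, Trappc9 and Kcnk9) WT at 6 months was highest and KO at 18 months lowest. The same held for the marker sums of excitatory neurons, PV interneurons, GABA neurons, neurons in general, oligodendrocyte precursors and choroid plexus. The excitatory neuron sum over 8 markers was 188 to 196 CPM in WT at 6 months, 165 to 175 in KO at 6 months, 48.3 to 51.5 in WT at 18 months and 24 to 26.5 in KO at 18 months. The orders are of group means and include genes called in no comparison (Mcts2, Igf2r and Cdkn1c). The part of cell composition in any of these levels was not tested.

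At 6 months KO differed from WT in 20 of the 36 tested genes, 12 higher and 8 lower, in the quasi-likelihood test of edgeR, with p adjusted over all tested genes by Benjamini-Hochberg. Over all genes 38.8% were called, 19.2% higher and 19.6% lower. Because a gene can pass the filter through the group in which it is high, the count over the tested members is a description. Paternally expressed genes were called higher 8 times and lower 2 times among 19 tested, and maternally expressed genes 2 times higher and 4 times lower among 11. Nap1l5 (1.72-fold), Inpp5f (1.68-fold), Peg10 (1.66-fold), Snrpn (1.54-fold), Ube3a (1.53-fold) and Grb10 (1.5-fold) were higher in KO. Meg3 (2.35-fold), Usp29 (2.18-fold), Mirg (1.7-fold), Blcap (1.45-fold), Zim1 (1.42-fold) and Trappc9 (1.26-fold) were lower. The median change was 0.01 on the log2 scale over the tested members and 0.00 over all genes. The libraries of the groups did not overlap for 27 of the 36, against 66.8% of all genes. Oligodendrocyte markers were called higher in 12 of 12 and astrocyte markers lower in 12 of 12 in the same comparison.

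At 18 months 11 of the 36 were called, 6 higher in KO (Grb10, Zim1, Peg3, Ppp1r9a, Blcap and Plagl1) and 5 lower (Meg3, Nap1l5, Snrpn, Inpp5f and Zrsr1). Over all genes 32.1% were called, 14.7% higher and 17.4% lower, so the share of the members called, 30.6%, lay near the background. With library totals as the only scaling the members split 9 higher to 4 lower and all genes 4268 higher to 1848 lower, with the median of all genes at 0.14. The libraries did not overlap for 21 of the 36, against 66.6% of all genes. All 11 genes had also been called at 6 months, in comparisons that share no library, and of all genes called at 18 months 3390 of 5844 (58.0%) had been. These 11 made up 55% of the 20 members called at 6 months. Grb10, Plagl1 and Meg3 kept their direction. Blcap, Inpp5f, Nap1l5, Peg3, Ppp1r9a, Snrpn, Zim1 and Zrsr1 had the opposite direction, 8 of 11 (72.7%), and among all genes called at both ages 2599 of 3390 (76.7%) did. In the KO libraries at 18 months the oligodendrocyte markers were called lower in 12 of 12 and the astrocyte markers higher in 12 of 12.

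**Figure D2:**
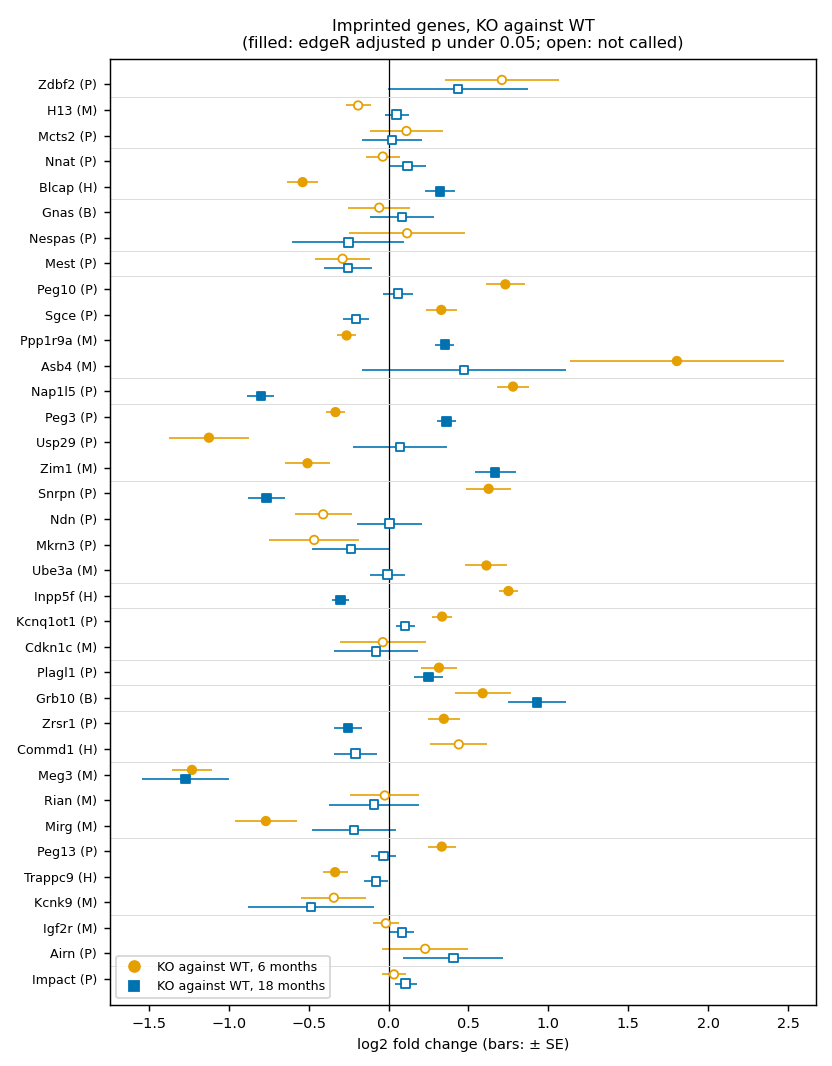
Log2 fold change of KO against WT for the 36 tested imprinted genes, grouped by cluster, at 6 months (orange circles) and 18 months (blue squares); bars are ± SE and filled symbols are genes called by edgeR at an adjusted p under 0.05. Filled symbols of Nap1l5 and Snrpn lie right of 0 at 6 months and left of it at 18 months, those of Peg3, Zim1, Blcap and Ppp1r9a the other way round, and those of Meg3 lie left at both ages.

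A test of the difference between the genotype effects, the interaction of genotype and age, called 15 of the 36 (41.7%), 5 with a higher value at 18 months and 10 with a lower one, against 39.1% of all genes, a share near the background. With library totals as the only scaling the split was 9 to 7, and the median of all genes moved to 0.21. The 8 genes of opposite direction were among the 15, beside Peg10, Sgce, Ube3a, Peg13, Usp29, Commd1 and Kcnq1ot1. For Meg3 the interaction was not called (log2 change -0.04, 95% interval -0.59 to 0.51). Averaged over the ages in an additive model, 1 gene was higher in KO (Grb10) and 1 lower (Meg3), where 3.11% of all genes were called, 0.692% higher and 2.42% lower.

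Between 18 and 6 months in WT 28 of the 36 were called, 11 higher and 17 lower at 18 months, against 59% of all genes (28.2% higher, 30.8% lower). Maternally expressed genes were called lower 7 times and higher 1 time among 11, and paternally expressed genes higher 8 and lower 6 times among 19. The median change was -0.33 over the tested members and -0.04 over all genes. Inpp5f (2.6-fold), Nap1l5 (2.46-fold), Ube3a (2.05-fold), Snrpn (2.04-fold), Peg10 (2.02-fold) and Commd1 (1.78-fold) rose most, and Meg3 (15.2-fold), Kcnk9 (8.82-fold), Mirg (4.45-fold), Usp29 (3.57-fold), Rian (3.24-fold) and Ndn (2.57-fold) fell most among the genes above the level set for naming. Groups did not overlap for 30 of 36, against 77.4% of all genes. Oligodendrocyte markers were higher in 12 of 12 and astrocyte markers lower in 12 of 12.

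In KO 21 of the 36 were called between the ages, 8 higher and 13 lower at 18 months, against 31.7% of all genes (13.8% higher, 17.9% lower). With DESeq2 the members called were 4 higher and 8 lower, and without KO library 2 at 6 months 3 were higher. Leaving out any other single KO library left 5 higher. With library totals as the only scaling the members split 8 to 10 and all genes 3839 higher to 2543 lower. Meg3 (15.6-fold), Kcnk9 (9.75-fold), Rian (3.4-fold), Zdbf2 (3.06-fold), Mirg (3.04-fold) and Airn (2.32-fold) fell most among the genes above that level, and Plagl1 (1.51-fold) rose most. All 21 were also called in WT, as were 4443 of the 5775 genes called with age in KO overall (76.9%), and they made up 75% of the 28 members called in WT. Of the 21, 17 had the same direction in WT and Nap1l5, Ppp1r9a, Snrpn and Zim1 the opposite. Of all genes called in both age comparisons 3430 of 4443 had the same direction. Groups did not overlap for 31 of 36, against 67.3% of all genes. Of 12 oligodendrocyte markers 2 were called higher and 6 lower with age in KO, and of 12 astrocyte markers 8 higher and 0 lower. Microglial markers were called lower with age in KO in 8 of 8 and red blood cell markers in 5 of 5. Excitatory neuron markers were called lower in 8 of 8 in KO and 6 of 8 in WT.

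**Figure D3:**
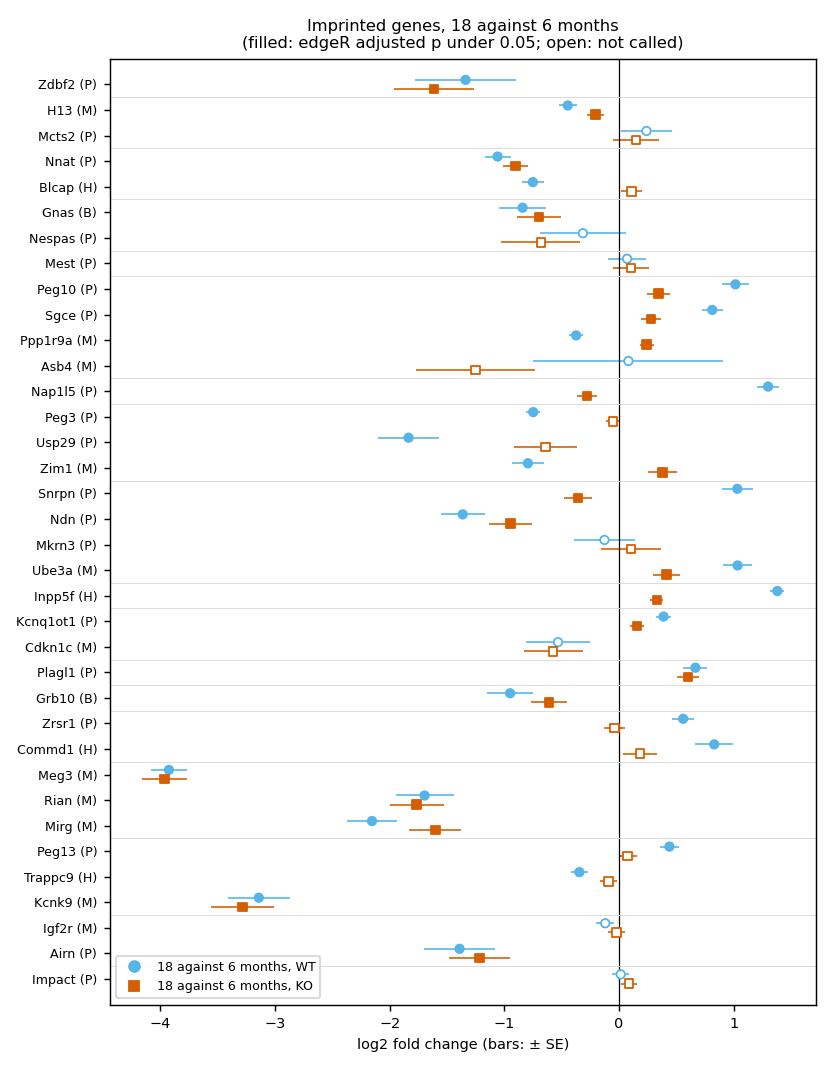
Log2 fold change of 18 against 6 months for the 36 tested imprinted genes, grouped by cluster, in WT (light blue circles) and KO (red squares); bars are ± SE and filled symbols are genes called by edgeR at an adjusted p under 0.05. Meg3 lies near -4 and Kcnk9 near -3 in both genotypes, and most other genes lie between -2 and 1.5.

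The Dlk1-Meg3 cluster on chromosome 12 makes the noncoding RNAs Meg3, Rian and Mirg from the maternal chromosome, as 1 long transcription domain that carries small nucleolar RNAs and microRNAs, and the protein-coding Dlk1 and Rtl1 from the paternal one. Meg3 (chr12:109541001-109571726, plus strand) stood at 57 and 62.7 CPM in the WT libraries and 24 and 27 CPM in the KO libraries at 6 months. WT at 18 months was at 4.51 and 3.54 CPM and KO at 1.3 and 1.98. The 4 groups did not overlap, and KO was below WT at both ages. Meg3 fell in KO at 6 months (log2 change -1.23 ± 0.12 SE, adjusted p = 1.61e-08), from 59.8 ± 4.06 to 25.5 ± 2.07 CPM (mean ± SD, n = 2, as for all means by group below), and at 18 months (log2 change -1.27 ± 0.27 SE, adjusted p = 0.000827), from 4.03 ± 0.688 to 1.64 ± 0.485. In the additive model the change was -1.25, with an adjusted p of 0.00432. With age it fell 15.2-fold in WT (log2 change -3.92 ± 0.16 SE, adjusted p = 4.34e-16) and 15.6-fold in KO (log2 change -3.96 ± 0.20 SE, adjusted p = 2.54e-13). Each of these calls of Meg3 was also made under every alternative tried.

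Rian, the host of small nucleolar RNAs downstream of Meg3, stood at 10.04 and 12.2 CPM in the WT libraries and 10.1 and 11.8 CPM in the KO libraries at 6 months. Levels at 18 months were 4.26 and 2.85 CPM in WT and 2.52 and 3.97 in KO. WT and KO overlapped at both ages, and its genotype change was not called (at 6 months log2 change -0.02, 95% interval -0.47 to 0.42; at 18 months log2 change -0.09, 95% interval -0.67 to 0.49). Mirg, the host of microRNAs at the far end of the domain, stood at 12.3 and 14.1 CPM in the WT libraries and 7.9 and 7.64 CPM in the KO libraries at 6 months. In the older mice the values were 3.13 and 2.85 CPM for WT and 2.6 and 2.5 for KO. It fell in KO at 6 months (log2 change -0.77 ± 0.20 SE, adjusted p = 0.00291), a call that was not made with DESeq2 (adjusted p = 0.0588), and was not called at 18 months (log2 change -0.22, 95% interval -0.76 to 0.33). Rian fell with age in WT (log2 change -1.70 ± 0.25 SE, adjusted p = 3.42e-06) and KO (log2 change -1.76 ± 0.23 SE, adjusted p = 3.2e-06), and so did Mirg (log2 change -2.15 ± 0.22 SE, adjusted p = 1.01e-08 in WT; log2 change -1.60 ± 0.23 SE, adjusted p = 8.05e-06 in KO). Whether Meg3 differed from Rian in its genotype change was not tested. Marker sums of PV interneurons, GABA neurons, excitatory neurons and oligodendrocyte precursors were also lower in KO at 6 months. In each genotype they were lower at 18 than at 6 months. The same held for the endothelial, fibroblast and choroid plexus sums. Oligodendrocyte precursor markers were called lower in KO in 8 of 8 at each age. They summed to 3204 to 3231 CPM in WT and 1255 to 1294 in KO at 6 months, then 1382 to 1424 and 895 to 905 at 18 months. The part of these cell types in the Meg3 values was not tested.

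**Figure D4:**
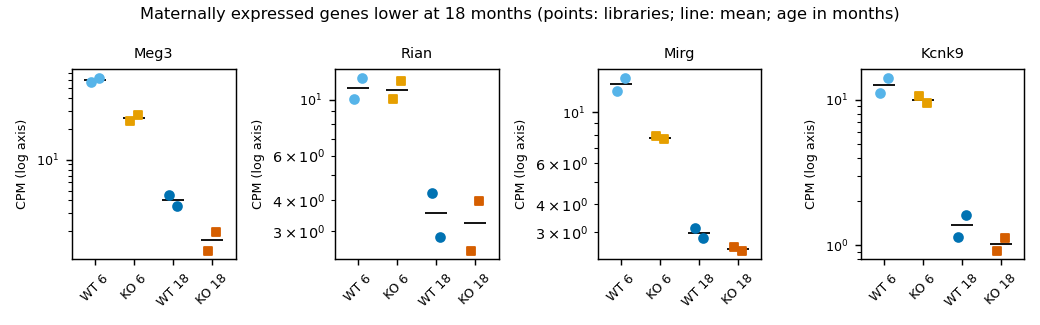
CPM of Meg3, Rian, Mirg and Kcnk9 in each library (points) with the group mean (line), on log axes that differ between panels, for WT and KO at 6 and 18 months. In each panel the libraries at 18 months lie below all libraries at 6 months, and in the Meg3 panel the KO points lie below the WT points at each age.

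Of the paternal side of that cluster, Dlk1, a membrane-bound regulator of differentiation, had 4 and 3 reads in KO at 6 months, 3 and 4 reads in KO at 18 months and none in the 4 WT libraries. With WT set to the floor of 3 reads over a group, the ratio of KO to WT was 1.67 at 6 months and 1.98 at 18 months. These ratios leave out the counting error of the KO reads and are not lower bounds. The pituitary hormone gene Prl had no read in WT, 1910 and 1843 in the 6-month KO libraries and 699 and 680 in the 18-month ones. Over 11 pituitary markers the summed level was 7.74 to 9.75 CPM in WT at 6 months, 234 to 238 in KO at 6 months, 13.8 to 14 in WT at 18 months and 74.2 to 78.6 in KO at 18 months. Cga, Lhb and Fshb had no read in any library. The part of pituitary RNA in the Dlk1 reads was not tested.

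Kcnk9, on chromosome 15, encodes a leak potassium channel and is expressed from the maternal allele in brain. It stood at 11.2 and 14.1 CPM in the WT libraries and 10.5 and 9.43 CPM in the KO libraries at 6 months. At 18 months it had 1.13 and 1.62 CPM in WT and 0.916 and 1.12 in KO. It fell with age in WT (log2 change -3.14 ± 0.27 SE, adjusted p = 4.54e-10) and in KO (log2 change -3.28 ± 0.28 SE, adjusted p = 2.97e-09), with no overlap between the ages, and its genotype change was not called at 6 months (log2 change -0.34, 95% interval -0.76 to 0.08) or 18 months (log2 change -0.49, 95% interval -1.30 to 0.33). Peg13, a paternal noncoding RNA inside Trappc9 in the same cluster, stood at 57.8 and 69 CPM in the WT libraries and 79.8 and 79.99 CPM in the KO libraries at 6 months. The older WT libraries had 82.3 and 89.1 CPM and the older KO libraries 82.8 and 85.6. It rose in KO at 6 months (log2 change 0.33 ± 0.09 SE, adjusted p = 0.00351), a call not made without WT library 1 at 6 months (adjusted p = 0.0846), and with age in WT (log2 change 0.44 ± 0.08 SE, adjusted p = 0.000101). Its host Trappc9, a subunit of a vesicle-tethering complex, stood at 116 and 114 CPM in the WT libraries and 93.1 and 89.1 CPM in the KO libraries at 6 months. WT at 18 months was at 93.5 and 87.7 CPM and KO at 79.3 and 92. It went the other way, falling in KO at 6 months (log2 change -0.33 ± 0.08 SE, adjusted p = 0.0014) and with age in WT (log2 change -0.35 ± 0.08 SE, adjusted p = 0.000494). Neither Peg13 nor Trappc9 was called at 18 months or with age in KO. The interaction of Peg13 was called (log2 change -0.36, adjusted p = 0.0147), but not with library totals as the only scaling (adjusted p = 0.273), without WT library 2 at 18 months (0.0892) or without WT library 1 at 6 months (0.102).

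In the Peg3 cluster on chromosome 7, the zinc finger gene Peg3 and the deubiquitinase-like Usp29 are paternal and share a bidirectional promoter, and the zinc finger gene Zim1 is maternal. Peg3 (chr7:6703892-6730431, minus strand) stood at 268 and 266 CPM in the WT libraries and 214 and 210.5 CPM in the KO libraries at 6 months. Levels at 18 months were 165 and 154 CPM in WT and 213 and 196 in KO. WT at 6 months was the highest group and WT at 18 months the lowest, with KO between them at both ages. Peg3 fell in KO at 6 months (log2 change -0.33 ± 0.06 SE, adjusted p = 0.000129), rose in KO at 18 months (log2 change 0.36 ± 0.06 SE, adjusted p = 5.61e-05) and fell with age in WT (log2 change -0.75 ± 0.06 SE, adjusted p = 2.42e-10), while in KO the age change was not called (log2 change -0.05, 95% interval -0.18 to 0.07). Usp29, at 0.237 RPKM over all libraries against 15.8 for Peg3, had 6-month means of 8.42 ± 0.499 CPM for WT and 3.85 ± 0.217 for KO, and 18-month means of 2.39 ± 0.338 and 2.47 ± 0.0734. It fell in KO at 6 months (log2 change -1.12 ± 0.25 SE, adjusted p = 0.000933) and with age in WT (log2 change -1.84 ± 0.27 SE, adjusted p = 2.27e-06), and was not called at 18 months (log2 change 0.07, 95% interval -0.53 to 0.68). Its interaction (log2 change 1.20, adjusted p = 0.0166) was not called with DESeq2 (adjusted p = 0.127), without KO library 1 at 18 months (0.06), without KO library 2 at 6 months (0.0551) or without WT library 2 at 18 months (0.0883).

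Zim1 stood at 24.4 and 24.9 CPM in the WT libraries and 16.1 and 18.5 CPM in the KO libraries at 6 months. In the older mice the values were 15.5 and 13.2 CPM for WT and 22.5 and 22.5 for KO. KO was below WT at 6 months and above it at 18 months, without overlap. It fell in KO at 6 months (log2 change -0.51 ± 0.14 SE, adjusted p = 0.00509), which was not called without KO library 1 at 6 months (adjusted p = 0.0833), and rose in KO at 18 months (log2 change 0.67 ± 0.13 SE, adjusted p = 0.000248). With age it fell in WT (log2 change -0.80 ± 0.14 SE, adjusted p = 2.93e-05) and rose in KO (log2 change 0.38 ± 0.13 SE, adjusted p = 0.0259). The rise with age in KO was not called with DESeq2 (adjusted p = 0.152), without KO library 1 at 18 months (0.101), without KO library 2 at 18 months (0.072) or without KO library 1 at 6 months (0.222). Paternal Peg3 and maternal Zim1 thus had the same sign in both genotype comparisons, with interactions of 0.69 and 1.17. Each of these signs was also that of the astrocyte markers, 12 of 12 of which were called lower at 6 months and higher at 18 months in KO, and the part of astrocyte RNA was not tested.

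Nap1l5 on chromosome 6 is a paternal gene for a nucleosome assembly protein that sits in an intron of Herc3. It stood at 57.4 and 53.6 CPM in the WT libraries and 99.6 and 90.9 CPM in the KO libraries at 6 months. At 18 months it had 151 and 124 CPM in WT and 83.6 and 73.2 in KO. At 6 months it rose in KO (log2 change 0.78 ± 0.10 SE, adjusted p = 7.12e-07) and fell at 18 months (log2 change -0.80 ± 0.08 SE, adjusted p = 7.49e-08), with no overlap between genotypes at either age. In WT it rose with age (log2 change 1.30 ± 0.10 SE, adjusted p = 2.3e-11), and in KO it fell (log2 change -0.28 ± 0.09 SE, adjusted p = 0.0167). The fall in KO was not called with DESeq2 (adjusted p = 0.0814), with library totals as the only scaling (0.092), without KO library 2 at 18 months (0.181) or without KO library 1 at 6 months (0.185). Its interaction was the most negative among the members called (log2 change -1.58 ± 0.13 SE, adjusted p = 4.53e-10).

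Inpp5f, on chromosome 7, encodes a phosphoinositide phosphatase and holds a paternal brain transcript that starts inside the gene. Gene-level counts do not separate that transcript from the rest. Inpp5f stood at 148 and 161 CPM in the WT libraries and 258 and 261 CPM in the KO libraries at 6 months. The older WT libraries had 407 and 397 CPM and the older KO libraries 327 and 325. It rose in KO at 6 months (log2 change 0.75 ± 0.06 SE, adjusted p = 4.57e-10), fell at 18 months (log2 change -0.30 ± 0.06 SE, adjusted p = 0.000161), and rose with age in WT (log2 change 1.38 ± 0.06 SE, adjusted p = 1.41e-15) and in KO (log2 change 0.33 ± 0.06 SE, adjusted p = 8.45e-05). The 4 groups did not overlap, and their order was that of the oligodendrocyte sum but for the places of the KO groups, in which KO at 18 months was above KO at 6 months for Inpp5f.

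**Figure D5:**
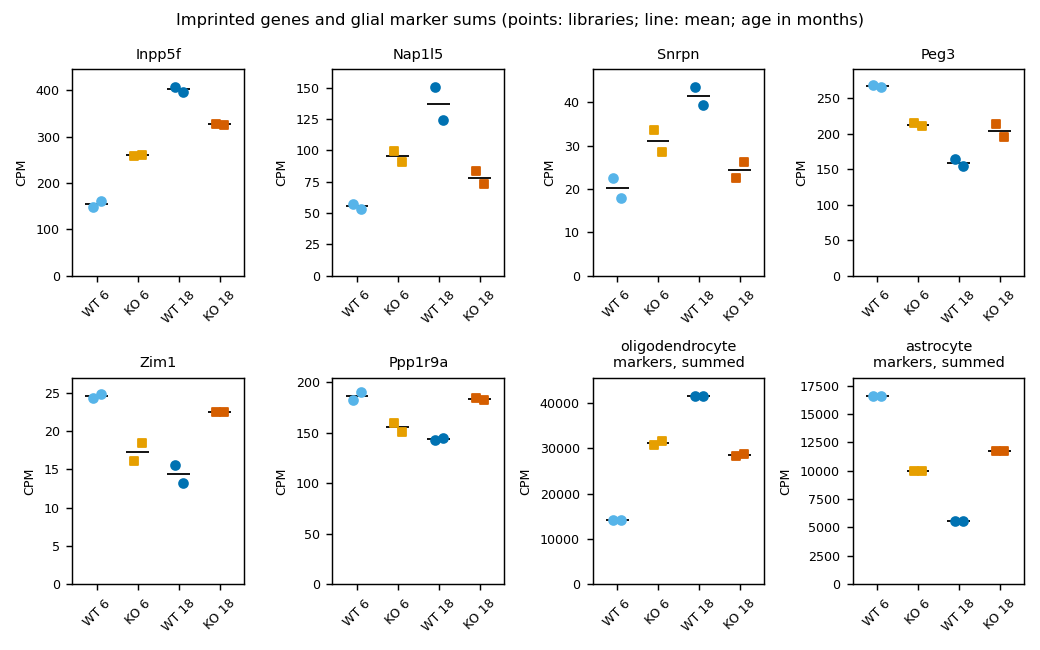
CPM of Inpp5f, Nap1l5, Snrpn, Peg3, Zim1 and Ppp1r9a, and the summed CPM of 12 oligodendrocyte and 12 astrocyte markers, in each library (points) with the group mean (line), for WT and KO at 6 and 18 months. In Inpp5f, Nap1l5, Snrpn and the oligodendrocyte sum, WT has the lowest group mean at 6 months and the highest at 18 months, and Peg3, Zim1, Ppp1r9a and the astrocyte sum are the reverse; single libraries of WT at 6 months and KO at 18 months overlap for Snrpn and Ppp1r9a.

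The Prader-Willi and Angelman region on chromosome 7 holds the paternal genes Snrpn, Ndn, Magel2, Mkrn3 and Peg12 and the maternal Ube3a. Snrpn, a splicing factor whose locus also carries the imprinting control region, stood at 22.6 and 17.9 CPM in the WT libraries and 33.7 and 28.7 CPM in the KO libraries at 6 months. WT at 18 months was at 43.6 and 39.3 CPM and KO at 22.5 and 26.2. In KO it rose at 6 months (log2 change 0.63 ± 0.14 SE, adjusted p = 0.000875) and fell at 18 months (log2 change -0.76 ± 0.12 SE, adjusted p = 1.43e-05), and with age it rose in WT (log2 change 1.03 ± 0.13 SE, adjusted p = 4.08e-07) and fell in KO (log2 change -0.36 ± 0.12 SE, adjusted p = 0.027). The fall in KO was not called with DESeq2 (adjusted p = 0.161), with library totals as the only scaling (0.0907), without KO library 1 at 18 months (0.273) or without KO library 1 at 6 months (0.3). Snrpn shares 34.1% of its exon bases with overlapping genes, among them Snurf, so its count is uncertain. Ndn, which encodes the neuronal growth suppressor necdin, had 6-month means of 16.4 ± 1.43 CPM for WT and 12.4 ± 2.61 for KO, and 18-month means of 6.47 ± 0.774 and 6.42 ± 0.554. It fell with age in WT (log2 change -1.36 ± 0.19 SE, adjusted p = 1.57e-06) and KO (log2 change -0.95 ± 0.19 SE, adjusted p = 0.000349), and was not called between genotypes. Mkrn3, a ring finger protein known for its role in the timing of puberty, was called in no comparison (at 6 months log2 change -0.47, 95% interval -1.05 to 0.12).

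Ube3a, a ubiquitin ligase expressed from the maternal allele in neurons and from either allele in other cells, stood at 61.2 and 57 CPM in the WT libraries and 101 and 79.2 CPM in the KO libraries at 6 months. Levels at 18 months were 140.1 and 104 CPM in WT and 132 and 108 in KO. It rose in KO at 6 months (log2 change 0.61 ± 0.13 SE, adjusted p = 0.000585) and with age in WT (log2 change 1.03 ± 0.13 SE, adjusted p = 1.85e-07) and KO (log2 change 0.41 ± 0.11 SE, adjusted p = 0.00711). The rise with age in KO was not called with DESeq2 (adjusted p = 0.172), without KO library 1 at 18 months (0.133) or without KO library 2 at 6 months (0.2). At 18 months the genotypes overlapped (log2 change -0.01, 95% interval -0.23 to 0.22). Its interaction (log2 change -0.62, adjusted p = 0.00553) was not called with DESeq2 (adjusted p = 0.0883) or without KO library 1 at 6 months (0.0684). Ube3a shares 27.3% of its exon bases with genes on the opposite strand, among them Snhg14, whose long transcript includes the Ube3a antisense RNA. For the strand setting of the counting nothing is given in the sources used, so reads of these could not be told apart.

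Grb10 on chromosome 11, an adaptor that dampens insulin and growth factor receptors, is maternal in most tissues and paternal in neurons. Its values were 6-month means of 12.7 ± 2.78 CPM for WT and 19.1 ± 3.04 for KO, and 18-month means of 6.47 ± 0.643 and 12.5 ± 0.621. Grb10 rose in KO at 6 months (log2 change 0.59 ± 0.17 SE, adjusted p = 0.00935) and at 18 months (log2 change 0.93 ± 0.18 SE, adjusted p = 0.000272), and in the additive model (log2 change 0.76 ± 0.15 SE, adjusted p = 0.0376). The call at 6 months was not made with DESeq2 (adjusted p = 0.0612), without KO library 2 at 6 months (0.122) or without WT library 2 at 6 months (0.14). The additive call was not made with library totals as the only scaling (adjusted p = 0.0539), without KO library 1 at 18 months (0.1), without KO library 2 at 18 months (0.0934), without KO library 1 at 6 months (0.0583), without KO library 2 at 6 months (0.132), without WT library 1 at 18 months (0.0874), without WT library 2 at 18 months (0.102) or without WT library 2 at 6 months (0.106). With age Grb10 fell in WT (log2 change -0.95 ± 0.20 SE, adjusted p = 0.000262) and in KO (log2 change -0.61 ± 0.16 SE, adjusted p = 0.00409). The fall in KO was not called with DESeq2 (adjusted p = 0.0632) or without KO library 2 at 6 months (0.141). Of 8 pericyte and smooth muscle markers, 5 were called higher in KO at 6 months and 7 at 18 months, and none lower. They summed to 2113 to 2137 CPM in WT and 2504 to 2565 in KO at 6 months, then 959 to 976 and 1832 to 1862 at 18 months. The part of these cells in the Grb10 values was not tested.

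Plagl1 on chromosome 10, a paternal zinc finger factor that restrains proliferation, stood at 30.3 and 39.1 CPM in the WT libraries and 44.7 and 41.8 CPM in the KO libraries at 6 months. In the older mice the values were 55.8 and 54.5 CPM for WT and 64 and 67.1 for KO. It rose in KO at 6 months (log2 change 0.32 ± 0.11 SE, adjusted p = 0.0253) and 18 months (log2 change 0.25 ± 0.09 SE, adjusted p = 0.0337), with no overlap at either age. At 6 months the call was not made with DESeq2 (adjusted p = 0.0711), with library totals as the only scaling (0.0626), without KO library 1 at 6 months (0.152) or without WT library 1 at 6 months (0.33), and at 18 months not with DESeq2 (adjusted p = 0.177), without KO library 1 at 18 months (0.0617), without KO library 2 at 18 months (0.154), without WT library 1 at 18 months (0.0733) or without WT library 2 at 18 months (0.148). It rose with age in WT (log2 change 0.66 ± 0.11 SE, adjusted p = 7.79e-06) and KO (log2 change 0.60 ± 0.09 SE, adjusted p = 2.59e-05), and those calls were made under every alternative.

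In the Peg10 cluster on chromosome 6 the retrotransposon-derived Peg10 and the sarcoglycan gene Sgce are paternal and are read in opposite directions from neighbouring start sites. Peg10 stood at 19.6 and 19.98 CPM in the WT libraries and 33.1 and 32.6 CPM in the KO libraries at 6 months. At 18 months it had 40.8 and 39.3 CPM in WT and 38.5 and 44.9 in KO. Sgce stood at 40.00 and 49.7 CPM in the WT libraries and 55.9 and 56.9 CPM in the KO libraries at 6 months. The older WT libraries had 81.4 and 76.6 CPM and the older KO libraries 67 and 69.8. Both rose in KO at 6 months (Peg10 log2 change 0.73 ± 0.12 SE, adjusted p = 3.93e-05; Sgce log2 change 0.33 ± 0.10 SE, adjusted p = 0.0094) and neither was called at 18 months (Peg10 log2 change 0.06, 95% interval -0.14 to 0.26; Sgce log2 change -0.20, 95% interval -0.37 to -0.04). The call of Sgce at 6 months was not made without WT library 1 at 6 months (adjusted p = 0.171). With age both rose in WT (Peg10 log2 change 1.01 ± 0.12 SE, adjusted p = 8.55e-08; Sgce log2 change 0.81 ± 0.09 SE, adjusted p = 6.33e-08) and in KO (Peg10 log2 change 0.34, adjusted p = 0.0116; Sgce log2 change 0.28, adjusted p = 0.0156). In KO the rise of Peg10 was not called with DESeq2 (adjusted p = 0.0762), without KO library 2 at 18 months (0.165), without KO library 1 at 6 months (0.058) or without KO library 2 at 6 months (0.0889), and that of Sgce not with DESeq2 (adjusted p = 0.064), without KO library 2 at 18 months (0.0696), without KO library 1 at 6 months (0.0901) or without KO library 2 at 6 months (0.0732).

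The cluster also holds maternal genes. Ppp1r9a, which encodes the actin-binding neurabin, stood at 182 and 190.2 CPM in the WT libraries and 159.8 and 151 CPM in the KO libraries at 6 months. WT at 18 months was at 143 and 144 CPM and KO at 184 and 183. It fell in KO at 6 months (log2 change -0.26 ± 0.06 SE, adjusted p = 0.00149), not called without KO library 2 at 6 months (adjusted p = 0.0609), and rose in KO at 18 months (log2 change 0.35 ± 0.06 SE, adjusted p = 5.19e-05). With age it fell in WT (log2 change -0.37 ± 0.06 SE, adjusted p = 1.32e-05) and rose in KO (log2 change 0.24 ± 0.06 SE, adjusted p = 0.0032), the latter not called without KO library 2 at 6 months (adjusted p = 0.0712). Asb4, a subunit of a ubiquitin ligase, was near the lower limit, with 6-month means of 0.408 ± 0.112 CPM for WT and 1.46 ± 0.0396 for KO, and 18-month means of 0.467 ± 0.226 and 0.597 ± 0.235, and passed the filter through the KO libraries. Its call at 6 months (log2 change 1.8, adjusted p = 0.0364) was not made with DESeq2 (adjusted p = 0.207) or without any 1 of the 8 libraries (0.0532 to 0.152).

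The chromosome 2 clusters pair imprinted genes with their hosts. Nnat, a paternal gene for a small membrane protein of the endoplasmic reticulum, lies within Blcap and stood at 47.9 and 45.3 CPM in the WT libraries and 41.7 and 49.3 CPM in the KO libraries at 6 months. Levels at 18 months were 23.3 and 21.6 CPM in WT and 24.4 and 24.2 in KO. It fell with age in WT (log2 change -1.06 ± 0.11 SE, adjusted p = 1.83e-08) and in KO (log2 change -0.90 ± 0.10 SE, adjusted p = 4.62e-07), and its genotype change was not called at 6 months (log2 change -0.04, 95% interval -0.25 to 0.18) or 18 months (log2 change 0.12, 95% interval -0.11 to 0.35). Its host Blcap stood at 57.6 and 63.8 CPM in the WT libraries and 43.6 and 40.00 CPM in the KO libraries at 6 months. In the older mice the values were 34.7 and 37.1 CPM for WT and 43.8 and 46.4 for KO. Blcap fell in KO at 6 months (log2 change -0.54 ± 0.10 SE, adjusted p = 7.96e-05), rose at 18 months (log2 change 0.32 ± 0.09 SE, adjusted p = 0.00872) and fell with age in WT (log2 change -0.75 ± 0.10 SE, adjusted p = 3.4e-07). The call at 18 months was not made with DESeq2 (adjusted p = 0.0656), without KO library 2 at 18 months (0.0698) or without WT library 1 at 18 months (0.0641). H13, the maternal gene of a signal peptide peptidase, stood at 85.9 and 84.8 CPM in the WT libraries and 75.6 and 74 CPM in the KO libraries at 6 months. At 18 months it had 59.6 and 65 CPM in WT and 64.1 and 65.6 in KO. It fell with age in WT (log2 change -0.45 ± 0.08 SE, adjusted p = 2.77e-05) and in KO (log2 change -0.21, adjusted p = 0.0371), the latter not called with DESeq2 (adjusted p = 0.211), with library totals as the only scaling (0.283), without the filter on low counts (0.174), without KO library 1 at 18 months (0.191), without KO library 2 at 18 months (0.0903), without KO library 1 at 6 months (0.173), without KO library 2 at 6 months (0.141) or without WT library 1 at 18 months (0.0524). Mcts2, the paternal retrogene inside H13, was called in no comparison and had 6-month means of 6.55 ± 0.986 CPM for WT and 7.07 ± 0.205 for KO, and 18-month means of 7.88 ± 1.45 and 7.84 ± 0.62.

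Gnas, which encodes the stimulatory G protein alpha subunit and has paternal, maternal and biallelic promoters, had 6-month means of 13.2 ± 1.86 CPM for WT and 12.7 ± 3.18 for KO, and 18-month means of 7.22 ± 0.996 and 7.81 ± 0.789. It fell with age in WT (log2 change -0.84 ± 0.21 SE, adjusted p = 0.00114) and KO (log2 change -0.70 ± 0.19 SE, adjusted p = 0.00612), and the fall in KO was not called with DESeq2 (adjusted p = 0.0666), without KO library 1 at 18 months (0.0725) or without KO library 2 at 6 months (0.244). Gnas shares 21.97% of its exon bases with overlapping genes and the antisense Nespas 38.5% of its own, so the counts of both are uncertain. Nespas was called in no comparison (at 6 months log2 change 0.12, 95% interval -0.64 to 0.87).

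Kcnq1ot1, the paternal noncoding RNA that silences its cluster on chromosome 7, stood at 288 and 296 CPM in the WT libraries and 386 and 351 CPM in the KO libraries at 6 months. The older WT libraries had 395 and 369 CPM and the older KO libraries 422 and 399. Kcnq1ot1 rose in KO at 6 months (log2 change 0.34 ± 0.06 SE, adjusted p = 0.00011) and with age in WT (log2 change 0.39 ± 0.06 SE, adjusted p = 7.97e-06) and KO (log2 change 0.16 ± 0.06 SE, adjusted p = 0.0481), and at 18 months its genotype change was not called (log2 change 0.10, 95% interval -0.02 to 0.23). The rise with age in KO was not called without both WT libraries at 6 months (adjusted p = 0.0677), without KO library 1 at 18 months (0.249), without KO library 2 at 6 months (0.442), without WT library 1 at 6 months (0.0541) or without WT library 2 at 6 months (0.0534). Its interaction (log2 change -0.23, adjusted p = 0.0346) was not called with library totals as the only scaling (adjusted p = 0.781), without KO library 2 at 18 months (0.102), without KO library 1 at 6 months (0.194), without WT library 1 at 18 months (0.111), without WT library 1 at 6 months (0.0893) or without WT library 2 at 6 months (0.0507). Cdkn1c, a maternal inhibitor of cyclin-dependent kinases in that cluster, was called in no comparison (at 6 months log2 change -0.04, 95% interval -0.60 to 0.52; at 18 months log2 change -0.08, 95% interval -0.63 to 0.47). Cdkn1c shares 30.7% of its exon bases with Gm44732 on the opposite strand, so its count is uncertain.

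On chromosome 11 the paternal retrogene Zrsr1, related to a splicing factor, lies within Commd1, a regulator of copper handling, and the exons of these genes overlap in part on opposite strands. Zrsr1 stood at 42 and 35.7 CPM in the WT libraries and 50.4 and 48.4 CPM in the KO libraries at 6 months. WT at 18 months was at 57.8 and 56.7 CPM and KO at 49.2 and 46.8. It rose in KO at 6 months (log2 change 0.35 ± 0.10 SE, adjusted p = 0.00747), fell at 18 months (log2 change -0.25 ± 0.09 SE, adjusted p = 0.0248) and rose with age in WT (log2 change 0.56 ± 0.10 SE, adjusted p = 2.46e-05). The call at 6 months was not made without KO library 1 at 6 months (adjusted p = 0.0607) or without WT library 2 at 6 months (0.112), and that at 18 months not with DESeq2 (adjusted p = 0.0926), with library totals as the only scaling (0.344), without the filter on low counts (0.0744), without KO library 1 at 18 months (0.0553), without KO library 2 at 18 months (0.144), without KO library 2 at 6 months (0.0505), without WT library 1 at 18 months (0.124) or without WT library 2 at 18 months (0.143). Commd1, with 6-month means of 8.83 ± 1.01 CPM for WT and 12 ± 0.226 for KO, and 18-month means of 15.7 ± 0.122 and 13.6 ± 0.431, rose with age in WT (log2 change 0.83 ± 0.17 SE, adjusted p = 0.000157) and was not called between genotypes. Its interaction (log2 change -0.65, adjusted p = 0.0245) was not called with DESeq2 (adjusted p = 0.124), with library totals as the only scaling (0.118), without KO library 2 at 18 months (0.0623), without KO library 1 at 6 months (0.0699), without WT library 2 at 18 months (0.058) or without WT library 2 at 6 months (0.0877).

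The remaining members were called with age or in no comparison. Igf2r, grouped here as maternal, encodes the receptor that carries Igf2 to lysosomes. It stood at 90.04 and 98.1 CPM in the WT libraries and 88.1 and 98 CPM in the KO libraries at 6 months. Levels at 18 months were 83.8 and 88.8 CPM in WT and 94.9 and 88.3 in KO. It was called in no comparison (log2 change -0.02, 95% interval -0.18 to 0.15 in KO at 6 months; log2 change 0.08, 95% interval -0.07 to 0.24 at 18 months; log2 change -0.12, 95% interval -0.28 to 0.04 with age in WT). Airn, the paternal antisense RNA of that locus, fell with age in WT (log2 change -1.39 ± 0.31 SE, adjusted p = 0.000516) and KO (log2 change -1.22 ± 0.26 SE, adjusted p = 0.00104). Group means of WT and KO went from 4.98 ± 0.531 and 5.85 ± 0.503 CPM to 1.83 ± 0.46 and 2.51 ± 0.0124. Impact, a paternal regulator of translation in neurons, stood at 88.2 and 99.1 CPM in the WT libraries and 95.6 and 96.2 CPM in the KO libraries at 6 months. In the older mice the values were 95 and 94.2 CPM for WT and 104 and 99.6 for KO. It was called in no comparison (log2 change 0.03, 95% interval -0.12 to 0.19 in KO at 6 months; log2 change 0.11, 95% interval -0.03 to 0.25 at 18 months). Zdbf2, a paternal gene linked to growth and feeding, fell with age in WT (log2 change -1.34 ± 0.44 SE, adjusted p = 0.0124) and KO (log2 change -1.61 ± 0.35 SE, adjusted p = 0.000993), from 3.42 ± 2.05 and 5.63 ± 1.49 CPM to 1.42 ± 0.479 and 1.85 ± 0.56. The fall in WT was not called with DESeq2 (adjusted p = 0.0681), without WT library 2 at 18 months (0.14) or without WT library 2 at 6 months (0.442). Mest, a paternal hydrolase-like gene, was called in no comparison (log2 change -0.29, 95% interval -0.64 to 0.07 in KO at 6 months; log2 change -0.25, 95% interval -0.56 to 0.05 at 18 months). Mest shares 23.1% of its exon bases with Copg2 on the opposite strand.

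Other genes of the field were read from further lists. Of 34 other imprinted or cluster genes 32 had an ID and 21 passed the filter. At 6 months 6 of the 21 were higher and 6 lower in KO, where 38.8% of all genes were called, and at 18 months 3 and 5, where 32.1% were. With age 7 were higher and 11 lower in WT, against 59% of all genes, and 4 and 6 in KO, against 31.7%. Their median genotype change was -0.17 at 6 months. In KO at 6 months Ddc, which makes dopamine and serotonin, rose (1.05 ± 0.15 SE, adjusted p = 4.14e-06, as log2 changes from here on), as did the histone chaperone gene Nap1l4 (0.33 ± 0.07 SE, adjusted p = 0.000593). Rasgrf1, a paternal exchange factor for Ras, fell (-1.53 ± 0.09 SE, adjusted p = 8.1e-13). Th, which encodes tyrosine hydroxylase, also fell (adjusted p = 1.1e-06), with 35 and 33 reads in WT and 1 and 2 in KO, a ratio of WT to KO of 31.7 (95% counting interval 10.4 to 158). At 18 months Adam23 (0.65 ± 0.07 SE, adjusted p = 5.03e-08) and Ago2 (0.46 ± 0.07 SE, adjusted p = 1.34e-05) rose in KO, and the tetraspanin gene Cd81 (-0.40 ± 0.05 SE, adjusted p = 2.16e-06) and Copg2 (-0.43 ± 0.08 SE, adjusted p = 0.000331) fell. With age in WT, Ddc (1.83 ± 0.14 SE, adjusted p = 3.8e-11) and Cobl (0.93 ± 0.08 SE, adjusted p = 3.73e-10) rose, and Rasgrf1 (-2.36 ± 0.09 SE, adjusted p = 1.34e-16) and Ago2 (-0.68 ± 0.07 SE, adjusted p = 2.17e-08) fell. With age in KO, Adam23 (0.47 ± 0.07 SE, adjusted p = 7.06e-06) and Ddc (0.54 ± 0.11 SE, adjusted p = 0.000681) rose, and Rasgrf1 (-1.27 ± 0.10 SE, adjusted p = 7.33e-10) and Cd81 (-0.27 ± 0.05 SE, adjusted p = 0.000286) fell.

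Of 18 factors that set, copy, protect or remove imprints, 16 passed the filter. At 6 months 3 were higher in KO and 1, Dnmt1, lower, and at 18 months 2 were higher and 2 lower, against the 38.8% and 32.1% of all genes called. With age 7 were higher and 5 lower in WT and 5 and 3 in KO, against 59% and 31.7%. In KO at 6 months Zfp445, which protects imprints, rose (0.38 ± 0.06 SE, adjusted p = 4.17e-05), and so did Tet1, of the enzymes that oxidise methylated cytosine (0.37 ± 0.09 SE, adjusted p = 0.00172). At 18 months another of those enzymes, Tet2 (0.46 ± 0.06 SE, adjusted p = 1.79e-06), and the chromatin remodeller Hells (0.64 ± 0.23 SE, adjusted p = 0.0347) rose in KO. Trim28, the corepressor recruited by Zfp57 (-0.23 ± 0.07 SE, adjusted p = 0.0143), and the insulator protein gene Ctcf (-0.20 ± 0.07 SE, adjusted p = 0.0339) fell. With age in WT, Zfp445 (0.56 ± 0.06 SE, adjusted p = 5.16e-08) and Ctcf (0.65 ± 0.08 SE, adjusted p = 2.51e-07) rose, and Tet2 (-0.37 ± 0.06 SE, adjusted p = 1.66e-05) and Uhrf1, the partner of Dnmt1 (-1.88 ± 0.41 SE, adjusted p = 0.000431), fell. With age in KO, Zfp445 (0.29 ± 0.06 SE, adjusted p = 0.000555) and the remodeller Atrx (0.30 ± 0.06 SE, adjusted p = 0.000661) rose, and Tet3 (-0.25 ± 0.06 SE, adjusted p = 0.00209) and Uhrf1 (-1.28 ± 0.43 SE, adjusted p = 0.0262) fell.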

How the data were processed

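RNA-seq counts of 8 libraries were analysed, 2 for each of WT and KO at 6 and 18 months. Raw counts of reads per Ensembl gene ID were deposited. Tools named for the authors' steps were featureCounts 1.5.0-p1, STAR 2.5.2a and CASAVA 1.8.2, on mm10, per the submitters' processing notes. How strand and shared reads were handled, and the annotation release, are not stated in the sources used here. Groups were taken from the sample labels. Symbols, positions and exon lengths came from GENCODE vM21 (GRCm38), which named 55394 of 55573 IDs, and promoter windows from RefSeq (GRCm38.p6).

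Genes were kept with edgeR 4.0.16 (R 4.3.3, limma 3.58.1) by filterByExpr with a minimum count of 10, leaving 18205. TMM scaling and 1 model over the 4 groups, with 2 libraries each and 4 residual degrees of freedom, gave the pairwise and interaction tests by the quasi-likelihood F-test. An additive model of age and genotype gave the average effect. P-values were adjusted by Benjamini-Hochberg over all tested genes, with a threshold of 0.05. The SE is the log2 change divided by the square root of F, and the 95% intervals from it are not adjusted for the number of genes. The code was tested on simulated data. A group with no reads was set to a floor of 3 reads for ratios, which leaves out the counting error of the other group. Floors and counting intervals cover no error beyond that of counting.

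The imprinted genes and the marker lists were chosen with earlier results of these data known. All members are named. Full statistics went to the 6 called members with the largest fold per direction whose higher group reached 5 CPM without overlap, and values in every library to members of at least 20 CPM in a group and to Dlk1, Meg3, Rian, Mirg, H19, Igf2 and Igf2r. For the interaction and additive model the 4 smallest adjusted p per direction were named, and for the other lists 2 per direction in each pairwise comparison. Other values shown were added after they were seen. Alternatives were DESeq2 1.42.0, RLE scaling, library totals only, no filter, a replicate block, leaving out each library, and, chosen after seeing the data, leaving out both WT libraries at 6 months.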

Additional observations from a re-analysis of the deposited data

Results flagged for a closer look

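For 15 of the 36 tested imprinted genes the difference between KO and WT was not the same at 18 as at 6 months by the interaction test of edgeR (adjusted p under 0.05), a share of 41.7% against 39.1% of all genes. Values are the log2 change at 18 months minus that at 6 months. They were positive for Peg3 (0.69), Ppp1r9a (0.62), Blcap (0.86), Zim1 (1.17) and Usp29 (1.20). They were negative for Nap1l5 (-1.58), Snrpn (-1.39), Inpp5f (-1.05), Peg10 (-0.67), Commd1 (-0.65), Ube3a (-0.62), Zrsr1 (-0.60), Sgce (-0.53), Peg13 (-0.36) and Kcnq1ot1 (-0.23). In the same test 12 of 12 astrocyte markers were called positive and 12 of 12 oligodendrocyte markers negative. Oligodendrocyte precursor markers were called positive in 8 of 8, microglial markers negative in 8 of 8 and red blood cell markers negative in 5 of 5. Of 8 pericyte and smooth muscle markers 5 were positive and 0 negative, and of 8 tested fibroblast markers likewise 5 and 0. The part of cell composition in the 15 values was not tested. Calls for Usp29, Ube3a, Kcnq1ot1, Commd1 and Peg13 were lost under at least 1 alternative.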

How the results depend on the processing

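Of 97 calls of a member in a comparison, 67 were made under every alternative, 30 were lost under at least 1, and none changed sign. With DESeq2, members called higher between ages in KO were 4 and lower 8 (8 and 13 with edgeR). All-gene counts with DESeq2 were 2351 lower at 6 months, 1555 higher at 18 months, 1453 higher and 1996 lower with age in KO, 2163 higher for the interaction, and 279 higher and 688 lower in the additive model. With library totals as the only scaling they were 4268 higher and 1848 lower at 18 months, 3839 higher with age in KO and 271 lower in the additive model, and the members higher were 9 for the interaction and 0 in the additive model. That scaling moved the median change of all genes to 0.14 at 18 months, -0.14 with age in WT, 0.10 with age in KO and 0.21 for the interaction, and the share of higher calls from 45.8% to 69.8% at 18 months, 43.5% to 60.2% with age in KO, 47.1% to 64.3% for the interaction and 22.3% to 33.1% in the additive model. Without the filter the additive model called 688 higher and 770 lower. With the replicate number as a block it called 50 higher and 224 lower, and 0 members higher (Grb10, adjusted p = 0.0838). Numbers did not pair the libraries, whose deviations correlated at -0.00194 to 0.0678 between groups, and no other count was moved by over 1.5 times by the block.

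Leaving out each library in turn gave 1931 (without WT library 2 at 18 months) to 3407 genes lower at 18 months, and 1252 to 2791 higher and 2003 to 3495 lower with age in KO. There the lowest counts came without KO library 2 at 6 months, and without KO library 1 at 18 months they were 1386 and 2154. Members higher with age in KO were 3 to 8, with 3 without KO library 2 at 6 months and 5 without any other single KO library. In the additive model all-gene counts were 22 to 78 higher, lowest without KO library 1 at 6 months, and 119 to 301 lower, lowest without KO library 2 at 6 months, with 0 to 1 member higher (Grb10, kept without WT library 1 at 6 months alone). Without both WT libraries at 6 months the members split 6 higher to 6 lower at 18 months and 7 to 13 with age in KO. With 2 libraries per group of pooled cells, differences between mice could not be measured, and levels under about 1 CPM rested on few reads.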
